A study of Mus musculus with 6 samples.

Results

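Adrenergic receptors and the cAMP pathway were examined in heart tissue of mice labelled as overexpressing hAT1R and of normal mice. The members were chosen by gene name, as each probe set annotated to exactly 1 of 9 genes, namely the adrenergic receptor genes Adrb1, Adra1a and Adra1b, the adenylyl cyclase genes Adcy5 and Adcy6, the phosphodiesterase genes Pde3a and Pde4d, and the protein kinase A genes Prkaca and Prkar1a. This gave 16 of 45037 probe sets, for 7 of the 9 genes. Adrb1 and Adra1a were not analysed here, as the annotation used lists no probe set for either gene alone. RNA abundance was measured on 6 Affymetrix Mouse430_2 arrays, 3 of C57BL/6 mice overexpressing hAT1R (human AT1R, a receptor for the peptide hormone angiotensin II, which narrows blood vessels) and 3 of C57BL/6 mice described as normal, matched for age and sex per the series design text. In the labels and files used here the age of the mice, the promoter that drives the transgene and the number of founder lines are not stated, nor whether each array came from a separate animal, so p-values measure only the spread between these samples. The comparison asks which transcripts differ in hearts that carry the receptor, and it is read here for the genes through which catecholamines act on the myocyte.

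Noradrenaline and adrenaline released in the heart bind beta-adrenergic receptors, which act through the stimulatory G protein on adenylyl cyclase to make cAMP, and alpha-1 receptors, which act through Gq on phospholipase C, as the angiotensin receptor does. cAMP binds the regulatory subunits of protein kinase A (PKA) and frees its catalytic subunits, which phosphorylate calcium channels, phospholamban and troponin I and so strengthen and speed the beat. Phosphodiesterases break cAMP down again, and anchoring proteins hold kinase and phosphodiesterase together at their targets.

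On all 6 arrays the word typed into the instrument's chip lot field was that of the other group, "control" on the 3 arrays labelled hAT1R and "transgene" on the 3 others. The groups below follow the sample labels, "labelled transgenic" is written for that reason, and the typed words would turn the sign of each difference. No probe set used here is annotated to the human receptor, so it could not check the labels. Fluidics station 2 served each labelled transgenic array but also non-transgenic array 1, and station 3 served non-transgenic arrays 2 and 3. Scanning began with all 3 labelled transgenic arrays, so scan order and group cannot be told apart. Xist, expressed from the inactive X chromosome of females, was high (log2 9.48 to 9.69) on 2 labelled transgenic arrays and 1 non-transgenic array, so the groups were not balanced for sex. The 12 cardiomyocyte markers were all above the brightness filter given below, with a summed signal on the linear scale of 453315 to 459222 on the labelled transgenic arrays and 464077 to 473200 on the others. Array medians lay between log2 3.25 and 3.31. With 6 arrays, precision is limited by their number.

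None of the members passed the test across all probe sets, so what follows is a description of values with their intervals. Of the 16 member probe sets, 10 lay above the brightness filter, a mean over the 6 arrays above log2 3.29, and were tested with limma. The call rule was an adjusted p under 0.05, met by 0 of these 10 and by 0.218% of all 22518 probe sets tested. An unadjusted p under 0.05 was found for 4 of the 10, against a background of 16.4%. They were both tested probe sets of Prkar1a, higher in the labelled transgenic group, and those of Pde4d and Adcy6, lower there, where the backgrounds are 9.41% for higher and 6.98% for lower values. The background was larger among bright probe sets. Above the 75th percentile of brightness, 2686 of 11259 probe sets had an unadjusted p under 0.05, and 4 of the 7 member probe sets there. The 2 groups did not overlap at 6 of the 10, against 23.0% of all probe sets tested. Their nearest values almost met at Adcy6 (10.12 against 10.14) and at Prkaca 1450519_a_at (10.71 against 10.72). Differences were below 0 at 8 of the 10, with a median of -0.16 on the log2 scale, while 47.5% of all probe sets tested lay below 0, with a median of 0.0097. Probe sets of 1 gene share their target, so these are 7 genes rather than 10 independent values. In whole tissue, fewer cells of a type and less RNA per cell cannot be told apart.

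**Figure D1:**
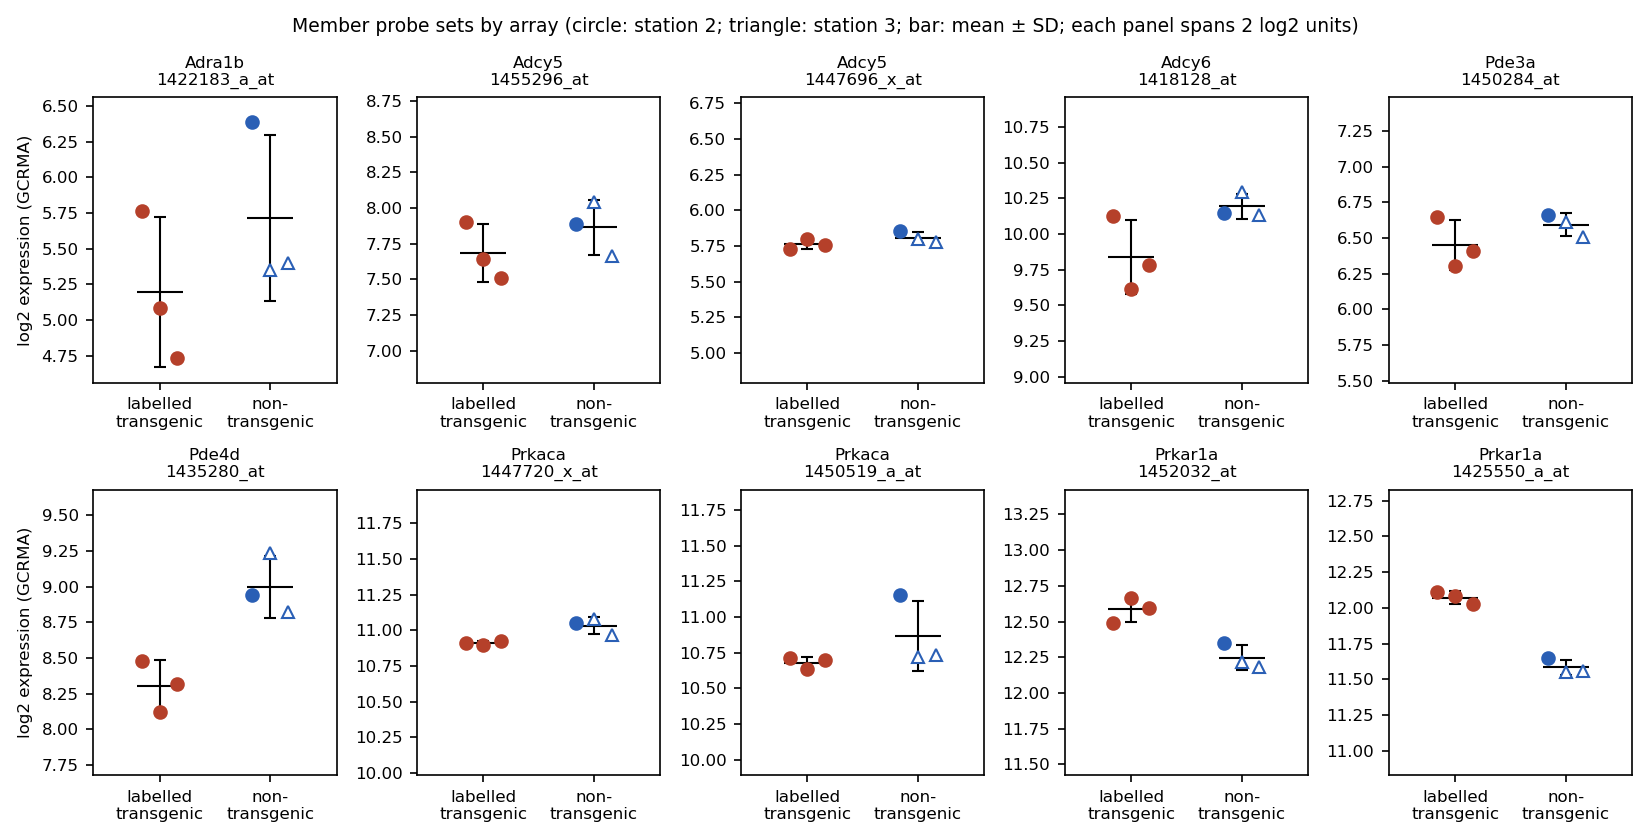
Each panel plots the log2 expression value of 1 member probe set above the brightness filter on each of the 6 arrays, with the group mean ± SD (n = 3). Every panel spans 2 log2 units, and circles and open triangles mark fluidics stations 2 and 3. The 3 labelled transgenic values lie above the 3 others in both Prkar1a panels and below them in the Pde4d panel, while the groups overlap for Adra1b, Adcy5 and Pde3a.

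The sequences around the start sites of 3 of these genes are shown. Prkar1a and Pde4d had the smallest p-values in each direction, and Prkaca encodes the catalytic partner of Prkar1a. They were taken from RefSeq, build GRCm38.p6, and each covers 250 bases before to 50 after an annotated start, 300 bases in all. Capitals mark the cAMP response element TGACGTCA, the site bound by CREB, a transcription factor that PKA phosphorylates, and its half-site TGACG, searched on both strands. The half-site lies within the whole element, which on its 2 strands holds it 2 times.
Prkar1a, chr11:109650612-109650911, strand +: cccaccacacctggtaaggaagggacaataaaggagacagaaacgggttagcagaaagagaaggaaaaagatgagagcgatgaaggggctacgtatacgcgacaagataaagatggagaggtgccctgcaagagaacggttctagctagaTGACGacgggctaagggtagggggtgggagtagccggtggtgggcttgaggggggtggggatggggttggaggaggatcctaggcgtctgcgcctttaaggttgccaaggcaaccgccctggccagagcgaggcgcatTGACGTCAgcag
Prkaca, chr8:83972728-83973027, strand +: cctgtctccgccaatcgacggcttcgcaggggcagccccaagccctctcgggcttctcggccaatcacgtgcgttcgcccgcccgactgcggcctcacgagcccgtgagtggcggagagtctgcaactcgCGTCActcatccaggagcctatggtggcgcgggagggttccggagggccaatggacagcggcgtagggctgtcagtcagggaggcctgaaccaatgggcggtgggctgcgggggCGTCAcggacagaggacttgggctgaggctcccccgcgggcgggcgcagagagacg
Pde4d, chr13:108653927-108654226, strand +: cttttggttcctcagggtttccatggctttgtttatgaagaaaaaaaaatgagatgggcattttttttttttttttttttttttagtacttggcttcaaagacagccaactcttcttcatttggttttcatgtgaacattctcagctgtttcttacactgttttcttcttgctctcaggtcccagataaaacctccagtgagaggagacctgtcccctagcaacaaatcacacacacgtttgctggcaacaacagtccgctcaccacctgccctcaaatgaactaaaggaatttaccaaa
The Prkar1a window shown held 1 whole element, near its downstream end and after the annotated start. It held 1 half-site apart from that element, before the start. The Prkaca window shown held 2 half-sites and no whole element, and the other Prkaca window and the Pde4d window shown held neither. Over all 32851 windows of that length, 1.79% held the whole element and 20.8% the half-site. Windows were found for 6 of the 9 genes, 13 in all, of which 5 held the half-site. These 5 belong to Adrb1, Prkaca and Prkar1a. The 2 with the whole element are among them, overlap and belong to Prkar1a, and in the one not shown the element lies before the start. They hold the same half-sites, so the 5 windows are not independent. The other 4 Prkar1a windows lacked the whole element, and the files do not say from which start the measured transcripts came. A match of letters is a description and shows no binding.

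Adra1b, the alpha-1B adrenergic receptor, was the only adrenergic receptor among the members with values. Its probe set 1422183_a_at was at log2 5.77, 5.09 and 4.73 on labelled transgenic arrays 1 to 3 and at 6.39, 5.35 and 5.40 on the non-transgenic ones. Array 1 was the highest of its group in each case, and the groups overlapped. The means were 5.20 ± 0.53 (SD, n = 3) and 5.71 ± 0.58, a difference of -0.52 ± 0.37 (SE) with a 95% interval from -1.41 to 0.38 and adjusted p = 0.545 (limma). This difference depended on non-transgenic array 1, the only one of its group on station 2. It was -0.18 without that array and -1.19 with station as a block, at adjusted p = 0.814 and adjusted p = 0.263 in limma, and all alternatives gave adjusted p-values of 0.224 to 0.827. Among the other adrenergic receptors, only Adra2c, an inhibitory receptor of nerve endings, had probe sets annotated to it alone, and these 4 probe sets all lay below the brightness filter.

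Adcy5 and Adcy6 encode the closely related, calcium-inhibited adenylyl cyclases that make most cAMP in heart muscle. For Adcy6, probe set 1418128_at read 10.12, 9.62 and 9.78 on the labelled transgenic arrays and 10.15, 10.30 and 10.14 on the non-transgenic ones. The labelled transgenic values lay below the others, with array 1 close to them and arrays 2 and 3 further down. The difference was -0.35 ± 0.14 (SE), that is 1.28-fold, with an interval from -0.69 to -0.012 and adjusted p = 0.292 in limma, so it did not pass. Leaving out labelled transgenic array 1 gave -0.49 and leaving out array 2 gave -0.24, with the adjusted p between 0.13 and 0.574 over all alternatives. Adcy5, by probe set 1455296_at, was at 7.90, 7.64 and 7.51 against 7.89, 8.04 and 7.66, and the groups overlapped. Its difference was -0.18 ± 0.14 with an interval from -0.52 to 0.16 (adjusted p = 0.585, limma). Single arrays moved it. Leaving out labelled transgenic array 1 gave -0.29 and leaving out array 3 gave -0.09, while dropping non-transgenic array 2 gave -0.09 and dropping array 3 gave -0.28. Averaged with its dimmer probe set, it was at -0.11. The dimmer Adcy5 probe set 1447696_x_at, whose suffix marks probes that may also bind other transcripts, was at -0.05 ± 0.06, and between -0.09 and -0.02 over its alternatives. The remaining 2 Adcy5 probe sets lay below the filter.

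Pde4d encodes a cAMP-specific phosphodiesterase that is anchored near the ryanodine receptor, the beta-adrenergic receptors and other PKA targets. Its probe set 1435280_at was at 8.48, 8.12 and 8.32 on the labelled transgenic arrays and at 8.94, 9.24 and 8.82 on the others. Each labelled transgenic value lay below each non-transgenic one. The means were 8.31 ± 0.18 and 9.0 ± 0.22 (SD, n = 3), a difference of -0.69 ± 0.14 (SE) or 1.62-fold, with a 95% interval from -1.04 to -0.35. With adjusted p = 0.114 in limma it did not pass, though it did when only probe sets above the 75th percentile of brightness were tested (adjusted p = 0.0417). The alternatives gave adjusted p-values of 0.0417 to 0.3. Another Pde4d probe set, 1459311_at, lay below the filter, at 2.69 to 2.79 on 5 arrays and at 4.43 on non-transgenic array 1 alone. Pde3a encodes the phosphodiesterase that cGMP inhibits and that milrinone blocks. It was at 6.65, 6.31 and 6.41 against 6.66, 6.61 and 6.51 by probe set 1450284_at, with overlapping groups. Its difference of -0.14 ± 0.11 had an interval from -0.40 to 0.12 (adjusted p = 0.568, limma). It was at -0.24 with labelled transgenic array 1 left out and at -0.07 with array 2 left out. Its other 2 probe sets lay below the filter.

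**Figure D2:**
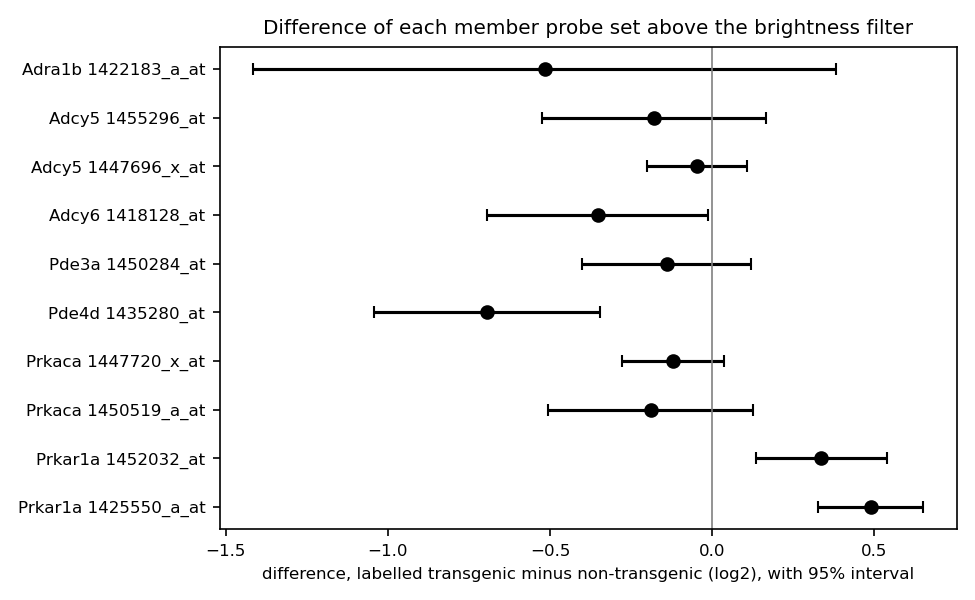
The plot gives the log2 difference, labelled transgenic minus non-transgenic, of each of the 10 member probe sets tested (points), with its 95% interval from limma (bars, n = 3 arrays a group). The intervals of both Prkar1a probe sets lie above 0 and those of Pde4d and Adcy6 below it, before adjustment for the 22518 probe sets tested.

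Prkar1a encodes the type I-alpha regulatory subunit of PKA, which holds the catalytic subunits inactive until cAMP binds. By probe set 1425550_a_at it was at 12.11, 12.08 and 12.03 on the labelled transgenic arrays and at 11.65, 11.55 and 11.56 on the non-transgenic ones. The gap between the groups was wider than the spread within either. The means were 12.07 ± 0.04 and 11.58 ± 0.05 (SD, n = 3), a difference of 0.49 ± 0.07 (SE) or 1.4-fold, with a 95% interval from 0.33 to 0.65. This was the smallest p among the members, and at adjusted p = 0.0671 in limma it lay just outside the threshold. A 2nd probe set, 1452032_at, read 12.49, 12.67 and 12.60 against 12.35, 12.21 and 12.18. Here too the groups did not overlap, and the difference was 0.34 ± 0.08 with an interval from 0.14 to 0.54 (adjusted p = 0.15, limma). With station as a block this difference was 0.24 (unadjusted p = 0.066, adjusted p = 0.343, limma). It ran from 0.24 to 0.41 over its alternatives. The mean of these 2 probe sets differed by 0.41 (adjusted p = 0.0575, limma on gene means), while a further Prkar1a probe set, 1447635_at, was below the filter on all arrays, at 2.67 to 2.73. Probe set 1425550_a_at passed with a trended variance (adjusted p = 0.0365) and among probe sets above the 75th percentile of brightness (adjusted p = 0.0237). It was at 0.43 with station as a block (adjusted p = 0.141), and alternatives in limma gave adjusted p-values of 0.0237 to 0.208.

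Prkaca encodes the main catalytic subunit of PKA. Its probe set 1447720_x_at was at 10.91, 10.89 and 10.92 on the labelled transgenic arrays and at 11.05, 11.08 and 10.96 on the others. The suffix again marks probes that may also bind other transcripts. The groups did not overlap, but the gap was small, with a difference of -0.12 ± 0.07 and an interval from -0.28 to 0.04 (adjusted p = 0.419, limma). Probe set 1450519_a_at was at 10.71, 10.63 and 10.70 against 11.15, 10.72 and 10.73, where non-transgenic array 1 stood above the other 5. Its difference was -0.19 ± 0.13 (adjusted p = 0.524, limma), -0.05 without that array and -0.47 with station as a block, with the adjusted p between 0.123 and 0.827 over all alternatives.

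The regulatory and catalytic probe sets were also set against each other within each array. The level of one probe set cannot be compared with that of another, so only the change of this value between arrays is read. For Prkar1a 1425550_a_at minus Prkaca 1447720_x_at the log2 value was 1.20, 1.19 and 1.10 on the labelled transgenic arrays and 0.60, 0.47 and 0.59 on the non-transgenic ones. The labelled transgenic mean lay 0.61 above the other. Over all 4 pairings of the tested probe sets of these genes that gap was between 0.46 and 0.68. The groups did not overlap in any pairing. That outcome was fixed beforehand, because each tested Prkar1a probe set was higher and each Prkaca one lower without overlap. The 4 pairings reuse the same values, and no test was made of them because the genes were paired with their differences known.

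**Figure D3:**
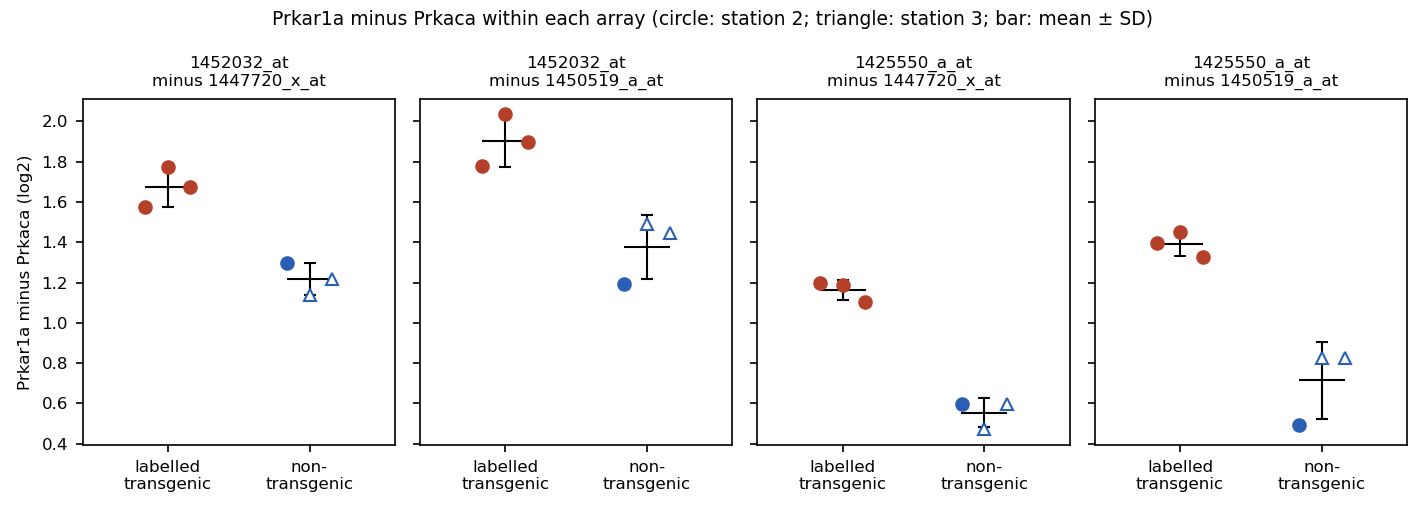
Each panel plots, for 1 pairing of probe sets, the log2 value of Prkar1a minus that of Prkaca on each array, with the group mean ± SD (n = 3). Circles and open triangles mark stations 2 and 3. In all 4 panels the labelled transgenic arrays lie above the non-transgenic ones, by 0.46 to 0.68 in the means. This follows from the single probe sets, none of which overlapped between groups.

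The other genes of the pathway were taken from 10 lists by role, 80 genes in all, of which 68 had a probe set and 57 were above the filter, with 1 probe set a gene. None of the 57 had an adjusted p under 0.05, against 0.227% of all 11016 genes tested. An unadjusted p under 0.05 was found for 5 higher and 5 lower genes of the 57, where the backgrounds are 10.4% of genes for higher and 7.76% for lower values. Their median difference was 0.01, next to 0.0099 over all genes. Among the 7 genes described above, 1 was higher and 2 were lower at that unadjusted threshold, and the median was -0.18. The remaining adenylyl cyclases were led by Adcy7, an isoform typical of blood and immune cells, which was at 6.98, 7.23 and 7.82 on the labelled transgenic arrays and at 5.94, 5.16 and 6.18 on the others. The groups did not overlap, and the difference was 1.58 ± 0.32 (adjusted p = 0.114, limma). Its other tested probe set, 1450065_at, was at 0.93 with overlapping groups. Adcy9 was at -0.22 ± 0.12, and Adcy1, Adcy2, Adcy8 and Adcy10 lay below the filter.

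Macrophage markers moved in the same direction as Adcy7. Of 8 such markers 7 did not overlap between groups, all higher in the labelled transgenic group (background 14.3% of genes), with a median difference of 0.51 and a summed linear signal of 6009 to 7048 against 4415 to 4927. Fibroblast markers did so for 6 of 10, with a median of 0.67 and a sum of 17472 to 22347 against 13204 to 15126. None of these 18 markers passed over all probe sets in limma, 7 of each list had an unadjusted p under 0.05, and none lay below the filter. Their part in the differences of Adcy7, Prkar1a and the other genes was not tested. Among the atrial myocyte markers Myl7, Sln and Bmp10 were below the filter and Myl4 and Nppa, the atrial natriuretic peptide gene that stressed ventricles also express, were above it. Nppa was at 14.42, 14.69 and 14.53 on the labelled transgenic arrays and at 12.69, 12.07 and 12.29 on the others. The groups lay far apart, and Nppa rose by 2.19 ± 0.17 on the log2 scale, 4.58-fold (adjusted p = 0.0257, limma), the only listed gene to pass, with its sign turned if the typed words are right. The call was lost in limma without a filter (adjusted p = 0.0625), with the Xist term (adjusted p = 0.0777), with the replicate block (adjusted p = 0.149), and with station as a block (1.85, adjusted p = 0.0706) or station 2 alone (adjusted p = 0.169). It was also lost when array 2 or array 3 of either group was left out, at 2.05 to 2.20 and adjusted p-values of 0.0916 to 0.139. RNA integrity was gauged by the log2 signal of a control gene at its 3' end minus that at its 5' end. For actin it was 0.80 to 0.94 on the labelled transgenic arrays and 0.97 to 1.05 on the others. For Gapdh it was 0.11 to 0.12 against 0.11 to 0.16, and the groups overlapped. The part of RNA integrity was not tested either.

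Of the phosphodiesterases beside Pde3a and Pde4d, 10 were tested. Pde1c, a calmodulin-activated phosphodiesterase of both cAMP and cGMP, was at 7.83, 7.53 and 7.62 against 8.40, 8.45 and 8.74. The groups did not overlap, and the difference was -0.87 ± 0.13, or 1.83-fold (adjusted p = 0.0695, limma). It passed as the mean of its probe sets, at -0.66 (adjusted p = 0.0451), and above the 75th percentile of brightness (adjusted p = 0.0204), with adjusted p-values of 0.0204 to 0.229 over its alternatives. The other 5 Pde1c probe sets tested were all below 0, from -1.33 to -0.16. Pde4a, of the same subfamily as Pde4d, was at -0.57 ± 0.15 (adjusted p = 0.161, limma) without overlap, and Pde2a, which cGMP activates, at -0.24 ± 0.09. The list as a whole was mixed, with 6 genes above 0 and 4 below.

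Genes for G proteins gave Gnai1, an inhibitory subunit, at -0.73 ± 0.17 (adjusted p = 0.141, limma) and Gnai3 at 0.17 ± 0.07 (0.09 to 0.22 over its alternatives), whereas Gnas, the stimulatory subunit, was at 0.03 ± 0.07 with overlapping groups. Among the other PKA subunits and inhibitors none of 6 genes had an unadjusted p under 0.05, and the inhibitor genes Pkia and Pkig had the smallest ones, at 0.17 ± 0.09 and 0.25 ± 0.13. Without non-transgenic array 3 they were at 0.11 and 0.12, and with station as a block at 0.03 and 0.15. Prkacb, a further catalytic subunit, was at -0.03 and Prkar2a, the type II-alpha regulatory subunit, at -0.04. The anchoring protein genes Akap12 and Akap13 were at 0.69 ± 0.23 and 0.28 ± 0.09, without overlap but with adjusted p = 0.233 and adjusted p = 0.22 in limma, and 8 other anchoring protein genes had an unadjusted p above 0.05. Akap12 was at 0.45 with station as a block, and Akap13, averaged over its probe sets, at 0.08 (adjusted p = 0.697). Popdc3, a cAMP-binding membrane protein of striated muscle, was at 0.59 ± 0.14 (adjusted p = 0.15, limma) and its relative Popdc2 at -0.19 ± 0.10 (-0.34 to -0.12 over its alternatives).

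PKA substrates of the myocyte gave no unadjusted p under 0.05 among 9 genes. The closest were Ryr2, the calcium release channel, at -0.29 ± 0.12 and Pln, the phospholamban gene that restrains the calcium pump, at -0.12 ± 0.06. All 5 tested genes of the CREB family and its coactivators lay above 0, with overlapping groups for each. Of all 11016 genes tested, 5768 lay above 0. Crtc1 and Crtc2 were at 0.01 and 0.02. Crem at 0.40 ± 0.17 and Crtc3 at 0.14 ± 0.11 had the smallest p of the 5. They ran from 0.26 to 0.57 and from 0.08 to 0.27 over their alternatives. For catecholamine handling, Maob, a mitochondrial monoamine oxidase, was at 9.75, 9.21 and 8.97 against 10.24, 10.01 and 10.04. Each labelled transgenic value lay below the others, and the difference was -0.79 ± 0.20 (adjusted p = 0.159, limma). The related Maoa was at 0.33 ± 0.13 from a dim probe set, at 3.84 against 3.50, and ran from 0.20 to 0.44 over its alternatives. Th, the rate-limiting enzyme of catecholamine synthesis, and Slc6a2, the noradrenaline transporter, lay below the filter on all their probe sets.

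**Figure D4:**
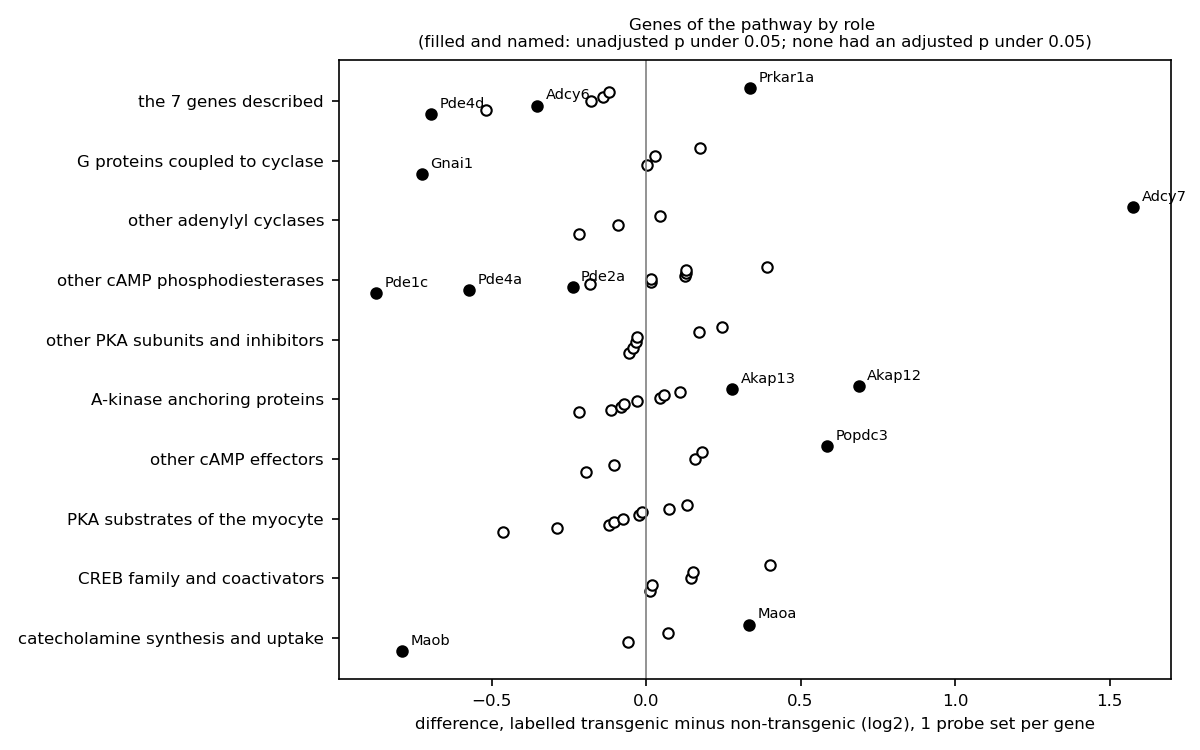
Each point is the log2 difference, labelled transgenic minus non-transgenic, of 1 gene of the pathway above the filter (1 probe set a gene, 3 arrays a group), placed by role. Filled, named points had an unadjusted p under 0.05, and none passed after adjustment over all probe sets. Adcy7 at 1.58 and Pde1c at -0.87 lie furthest out.

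The genes whose pattern over the 6 arrays was most like that of Prkar1a 1425550_a_at, among 11015 genes with 1 probe set each, were Sap30l (Pearson r = 0.997), Tmbim1 (r = 0.997) and Rbms3 (r = 0.996). These correlations rest mainly on the gap between the groups, they were picked as the highest of many, and they carry no p. The 3 genes were at 0.16, 0.61 and 0.67 in the same comparison, at adjusted p = 0.274, adjusted p = 0.0613 and adjusted p = 0.065 in limma. Averaged over its probe sets, Rbms3 was at 0.31 (adjusted p = 0.108).

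**Figure D5:**
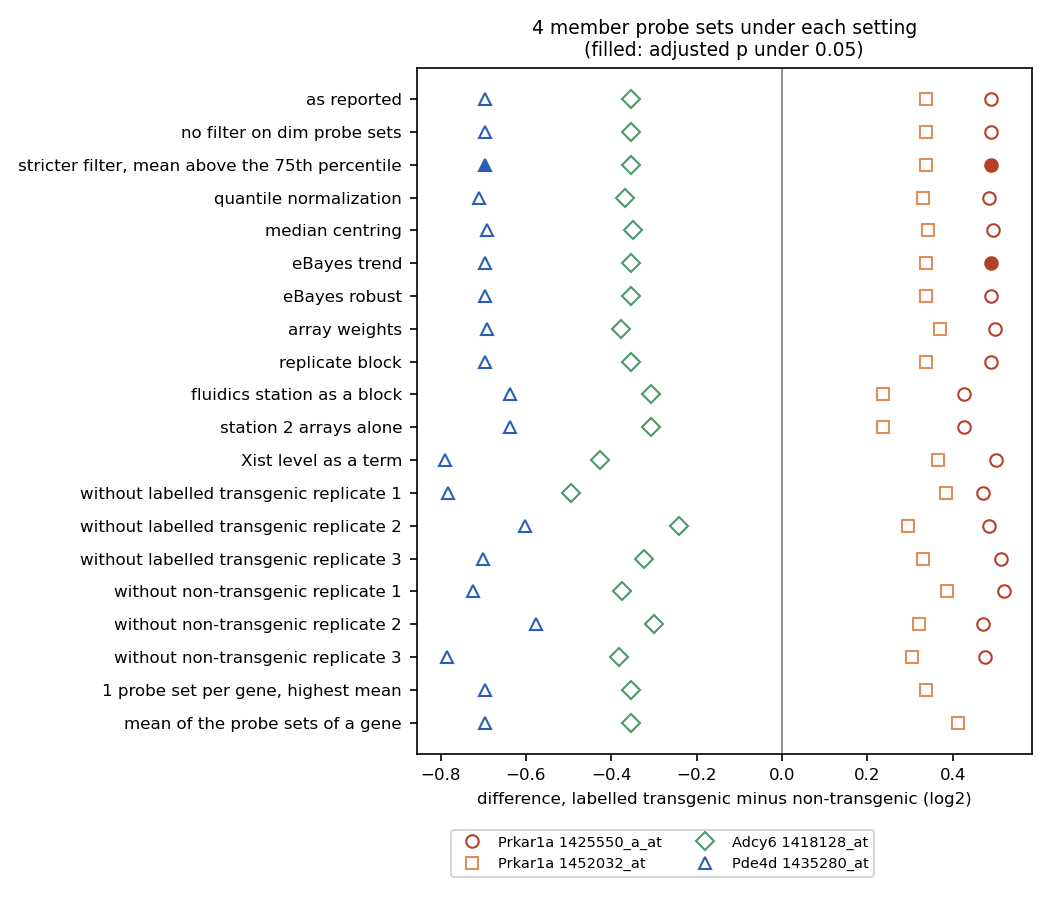
The plot gives the log2 difference, labelled transgenic minus non-transgenic, of the 4 member probe sets with an unadjusted p under 0.05 (symbols) as reported and under the other settings tried (rows), and filled symbols had an adjusted p under 0.05. No value crossed 0, with Prkar1a 1425550_a_at between 0.43 and 0.52 and Pde4d between -0.79 and -0.58. Prkar1a 1452032_at lay between 0.24 and 0.41 and Adcy6 between -0.49 and -0.24.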

How the data were processed

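RNA abundance in mouse heart was measured on 6 arrays, and biotinylated cRNA was made from 6 ug of total RNA per the labels' protocols. The deposited values were log2 expression, 1 per probe set and array, made with GCRMA per the submitters' processing notes, with version and later steps not given in the sources used here, and were used as deposited. Station, scan order and typed words came from the deposited instrument records, whose other fields were not used.

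Of 45101 probe sets, 64 controls were left out. Genes came from the platform annotation of 2016, and the gene IDs of all 16 member probe sets matched RefSeq (GRCm38.p6). The test was limma's moderated one (version 3.58.1, R 4.3.3), on probe sets with a mean above the median of log2 3.29 (2-sided, Benjamini-Hochberg over 22518 probe sets, threshold 0.05), and all adjusted p-values come from limma. The same steps were tested on simulated data. For the lists, each gene was its brightest probe set. Each list's genes past the adjusted threshold were to be named, otherwise the 2 with the smallest p. Nppa, Gnas, Prkacb, Prkar2a, Pde2a, Th and Slc6a2 were added after their values were seen. Lists of lymphocyte, endothelial, smooth muscle, adipocyte, nerve and erythroid markers had median differences of 0.15, 0.05, -0.12, -0.25, 0.05 and -0.11. These medians rest on 2, 8, 8, 1, 4 and 2 tested genes, the adipocyte one on Fabp4 alone. The members and lists were chosen with earlier results of these data known. Alternatives covered the filter, normalization, variance model, array weights, replicate, station and Xist terms, gene summaries and single arrays left out. At most 0.0177% of values were identical between any pair of arrays.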

Additional observations from a re-analysis of the deposited data

How the results depend on the processing

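None of the 10 tested member probe sets changed sign in the 16 to 19 of the 19 alternatives that gave each a value. The number of member probe sets called was 0 in limma as reported, 2 above the 75th percentile of brightness (Prkar1a and Pde4d) and 1 with a trended variance (Prkar1a), and 0 with any single array left out. Their number at an unadjusted p under 0.05 ran from 3 to 5 with single arrays left out. The other pathway genes gave 1 call, Pde1c, above that percentile and 1, again Pde1c, when probe sets were averaged per gene. Over all probe sets limma called 49, and 15 without a filter, 416 of the 11259 above that percentile and 108 with a trended variance. It called 2 with station as a block, 0 within station 2 (3771 at an unadjusted p under 0.05), 0 with Xist as a covariate (3126 unadjusted), and 0 to 75 with single arrays left out, where the fits with 0 calls (without labelled transgenic array 2 or 3, or non-transgenic array 2 or 3) had 2532 to 3430 unadjusted. It was 5 without non-transgenic array 1 and 75 without labelled transgenic array 1. With the replicate number as a block limma called 0 (3324 unadjusted), and Prkar1a 1425550_a_at was at 0.49 (adjusted p = 0.192). Arrays with the same number did not deviate together, with correlations of -0.083, -0.17 and -0.0067, so the numbers were not taken as pairs. Station 2 held a single non-transgenic array, which is assumed to vary like the others, and its values equal those of the block. The causes were not tested.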
